A study of Homo sapiens with 12 samples.

Results

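The unfolded protein response and the integrated stress response were examined through 40 genes, chosen by symbol from the 25382 symbols of the count table. Of these, 23 form the ATF4 arm, namely ATF4, its partner factors, its feedback genes and its amino acid enzymes and transporters. The other 17 form the ER chaperone arm, namely the sensors of the endoplasmic reticulum (ER), its chaperones and its degradation factors. All 40 passed the filter on low counts, as did 15437 symbols in all. The rule for the 40 goes by symbol and uses no measured value. However, the members and all gene lists were chosen with earlier results of these data known. Shares of members set beside shares of all genes are therefore descriptions.

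The cells were Cal27, a human tongue squamous carcinoma line, genotype WT, cultured on collagen-coated polyacrylamide gels. Every library followed 5 days of conditioning and 1 day after replating. In the stiff-to-soft condition, cells were conditioned on 20 kPa gels and replated on 0.48 kPa gels. In the LPA-to-FAKi condition, cells on 0.48 kPa gels received lysophosphatidic acid (LPA) and then, on a new soft gel, a FAK inhibitor (FAKi). In the LPA-to-soft condition, LPA conditioning on soft gel was followed by soft gel without the inhibitor. In the soft-to-soft condition, cells stayed on soft gel without either agent. The study put stiff-to-soft and LPA-to-soft in a class that keeps a memory of its conditioning (learned), and LPA-to-FAKi and soft-to-soft in a class that does not (not learned). Each condition had 3 libraries of bulk RNA, numbered 1 to 3 in the titles. Agent doses are not in the labels, a single line stands for the tumour, and no group received the inhibitor without LPA.

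Cells slow the translation of most mRNAs when a kinase phosphorylates the initiation factor eIF2α, and the mRNA of the transcription factor ATF4 is then translated more. ATF4 switches on genes for amino acid synthesis, amino acid import and, under longer stress, growth arrest or death; this is the integrated stress response, and the ER-resident kinase PERK (encoded by EIF2AK3) is 1 of the kinases that start it. Unfolded protein in the ER also activates ATF6, which is cut into a transcription factor, and IRE1 (encoded by ERN1), which splices XBP1 mRNA; both raise chaperones of the ER. Gene counts measure mRNA level, so neither XBP1 splicing, ATF6 cleavage, ATF4 protein nor eIF2α phosphorylation was measured.

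Both arms have known promoter elements, and the sequences are shown because the factors of each arm act through them. The ER stress element (ERSE, CCAAT and CCACG with 9 bases of any kind between them) is bound by ATF6 with NF-Y. The C/EBP-ATF response element (CARE, TGATGNAA) is bound by ATF4 with C/EBP factors. The unfolded protein response element (UPRE, TGACGTGG) is bound by spliced XBP1 and ATF6. The CGTGG that ends the UPRE is the opposite strand of the CCACG that ends the ERSE. Both strands of the 250 bases before each gene's start were searched, with sequences from RefSeq, build GRCh38.p14, whereas the counts rest on hg19. Of the 40 members, 35 had a promoter in the table; PSPH, SHMT2, ALDH1L2, GPT2 and NUPR1 were not matched. The whole windows are given for ASNS and HSPA5, the members of each arm with the best known element, both on the minus strand, with the element in capitals.
ASNS, chr7:97872409-97872658, minus strand: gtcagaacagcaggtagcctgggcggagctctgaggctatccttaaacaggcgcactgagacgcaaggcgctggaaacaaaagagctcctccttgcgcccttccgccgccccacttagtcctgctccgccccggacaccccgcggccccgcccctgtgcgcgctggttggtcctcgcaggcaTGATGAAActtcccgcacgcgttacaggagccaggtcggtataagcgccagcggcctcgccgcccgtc
HSPA5, chr9:125241344-125241593, minus strand: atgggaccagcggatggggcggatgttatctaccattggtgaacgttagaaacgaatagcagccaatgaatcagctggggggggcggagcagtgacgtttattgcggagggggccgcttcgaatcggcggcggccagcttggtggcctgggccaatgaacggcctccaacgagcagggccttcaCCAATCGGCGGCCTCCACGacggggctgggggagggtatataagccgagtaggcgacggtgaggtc

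The ERSE was found in 5 of 17 ER arm promoters (29.4%) and in none of the 18 matched ATF4 arm promoters, against 26 of 35116 promoters in the RefSeq table (0.0740%). The 5 genes were HSPA5, HSP90B1, XBP1, CALR and CRELD2, and HSP90B1 held 2 copies that do not overlap. With -1 as the base before the start, the element lay at -66 to -48 in HSPA5, at -194 to -176 and -89 to -71 in HSP90B1, at -52 to -34 in XBP1, at -225 to -207 in CALR and at -80 to -62 in CRELD2. The capitals below mark the ERSE, read along the strand named.
HSPA5, chr9:125241381-125241419, minus strand: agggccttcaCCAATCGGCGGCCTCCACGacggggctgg
HSP90B1 first copy, chr12:103930206-103930244, plus strand: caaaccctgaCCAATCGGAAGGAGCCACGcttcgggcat
HSP90B1 second copy, chr12:103930311-103930349, minus strand: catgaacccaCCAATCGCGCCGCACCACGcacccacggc
XBP1, chr22:28800593-28800631, minus strand: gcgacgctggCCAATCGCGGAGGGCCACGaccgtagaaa
CALR, chr19:12938374-12938412, minus strand: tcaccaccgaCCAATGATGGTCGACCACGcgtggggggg
CRELD2, chr22:49918544-49918582, minus strand: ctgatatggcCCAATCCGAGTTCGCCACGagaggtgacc

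The CARE was found in 3 of 18 ATF4 arm promoters (16.7%), those of ASNS, CHAC1 and PPP1R15B, and in 1 of 17 ER arm promoters (5.88%), that of HERPUD1, against 1104 of 35116 (3.14%). The UPRE was found in 1 of 17 ER arm promoters (5.88%), that of HYOU1, and in none of the 18 ATF4 arm promoters, against 215 of 35116 (0.612%). The elements were searched because they are known for these arms, and the 35116 promoters include those of the members. The shares are therefore no test of the arms. A match describes letters in this window only. The capitals mark the CARE in the first 4 sequences and the UPRE in the last.
ASNS, chr7:97872459-97872486, minus strand: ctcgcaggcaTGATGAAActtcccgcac
CHAC1, chr15:40953252-40953279, minus strand: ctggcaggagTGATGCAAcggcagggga
PPP1R15B, chr1:204412027-204412054, minus strand: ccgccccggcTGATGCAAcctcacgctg
HERPUD1, chr16:56931956-56931983, minus strand: gggcacgggcTGATGCAAcccgccgcgt
HYOU1, chr11:119057376-119057403, minus strand: gctggccccgTGACGTGGtccaatccca

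Library totals were 62953957 to 122311183 counts, and levels are CPM (counts scaled to library size, here with TMM factors), which do not correct for gene length. All 12 epithelial markers exceeded 1 CPM in all 12 libraries, as did 1 of 9 fibroblast, 3 of 7 leukocyte and 2 of 5 endothelial markers. In soft-to-soft replicates 1 and 2, 42.9% and 42.2% of counts from 1 to 19 were even, against 96.8% to 97.9% in the other 10 libraries. Soft-to-soft replicates 1 and 2 thus follow another counting rule in this range, and higher counts were not examined for it. The PPP1R15A call, the arm medians against soft-to-soft cells and the counts between replicate numbers are also given without soft-to-soft replicates 1 and 2. Whether replicates were separate cultures is not stated, so each p-value reflects the spread among these libraries alone, and that spread may be technical. Libraries with the same number deviated together from their condition means, although the meaning of a number is not in the labels. Differences between conditions are therefore given from a fit without the number and from a fit with it as a block. In bulk RNA, fewer cells of a type and less RNA per cell cannot be told apart.

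Between conditions, no member passed the test in the fit without the block. In each of the 6 comparisons of 2 conditions, in the test of any condition and in learned against not learned, edgeR's quasi-likelihood test called 0 of 40 members and 0% of the 15437 genes. DESeq2 without the block likewise called 0 members in each. At an unadjusted p under 0.05, the members numbered 0 for stiff-to-soft over soft-to-soft, 1 for LPA-to-soft over soft-to-soft, 5 for LPA-to-FAKi over LPA-to-soft, 3 for LPA-to-FAKi over soft-to-soft, 0 for stiff-to-soft over LPA-to-soft, 4 for stiff-to-soft over LPA-to-FAKi, and 2 each for any condition and for learned over not learned. The shares of all genes at that p were 1.94%, 1.37%, 5.43%, 3.55%, 1.39%, 2.93%, 2.25% and 2.89% in the same order. With the block, a single member passed in a single comparison: PPP1R15A fell in stiff-to-soft cells relative to soft-to-soft cells.

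**Figure D1:**
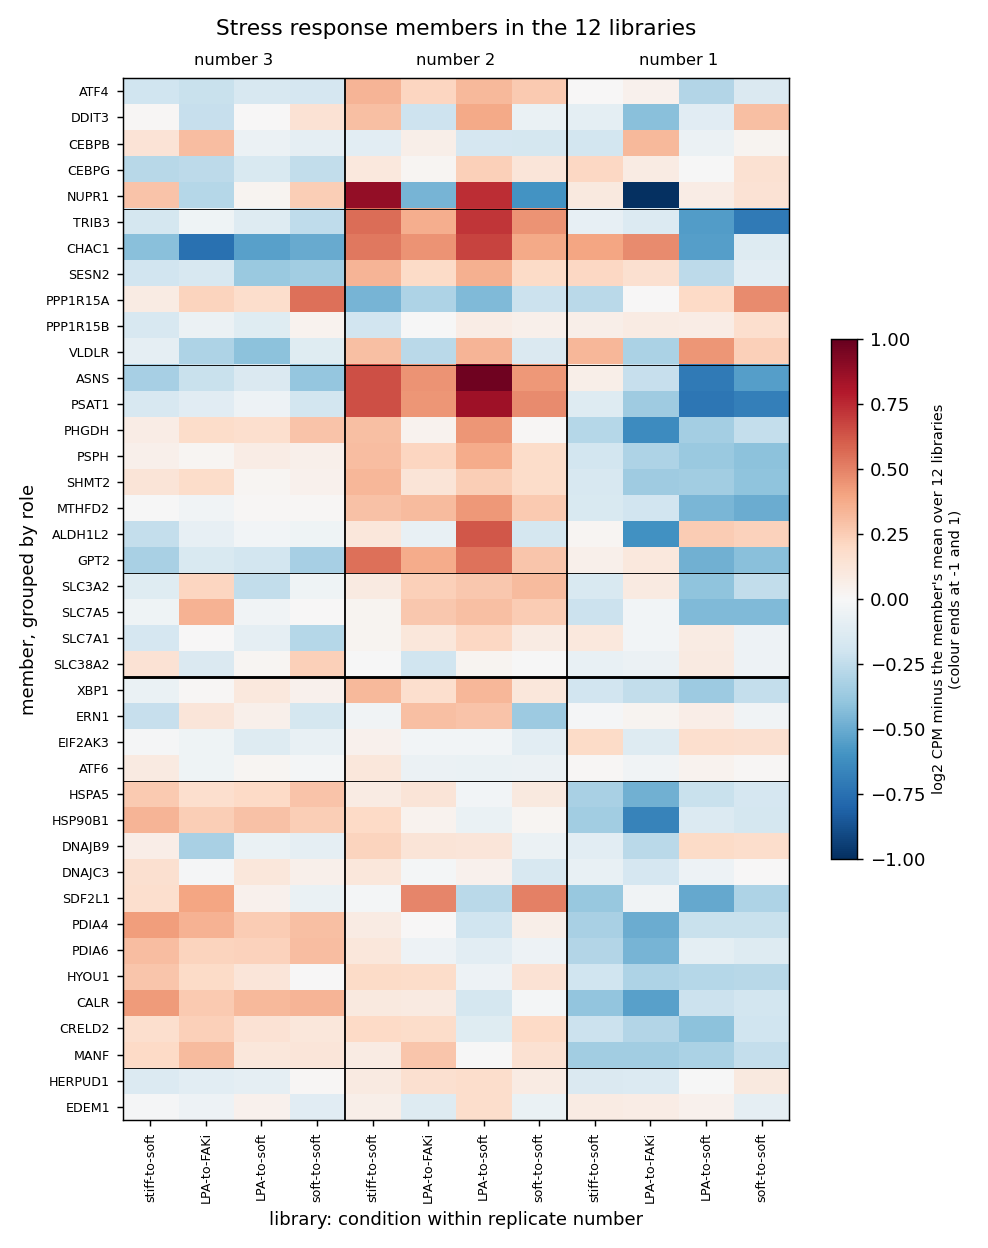
Level of each of the 40 members (down the page, grouped by role) in each of the 12 libraries (across, grouped by replicate number 3, 2 and 1 and, within a number, as stiff-to-soft, LPA-to-FAKi, LPA-to-soft and soft-to-soft), as log2 CPM minus the member's mean, with colours ending at 1 and -1. Blocks of like colour follow the numbers: ASNS averaged 80.2 ± 14.7 CPM in libraries numbered 2 and 40.9 ± 9.79 CPM in libraries numbered 1 (SD, n = 4 each).

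The first comparison asked whether conditioning on stiff gel left a trace after replating on soft gel. PPP1R15A encodes GADD34, the stress-induced subunit that directs protein phosphatase 1 to dephosphorylate eIF2α and so ends the response. Its levels, in replicates 3, 2 and 1, were 303, 208 and 238 CPM in stiff-to-soft cells, against 420.1, 247 and 397 CPM in soft-to-soft cells. The stiff-to-soft library was the lower of its pair in all 3 numbers, yet the conditions overlapped, since soft-to-soft replicate 2 lay between the stiff-to-soft libraries. The same-number log2 differences were -0.47, -0.25 and -0.74, and the block fit gave -0.49 ± 0.0914 (adjusted p = 0.0471), at which it called 1 of 40 members against 0.583% of all genes. Stiff-to-soft cells averaged 249 ± 48.4 CPM, against 354 ± 94.2 CPM for soft-to-soft cells (SD, n = 3 each), and without the block the adjusted p was 1.

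The PPP1R15A call stood near the threshold. Leaving out any 1 of the 12 libraries gave log2 changes of -0.58 to -0.39; the call remained without LPA-to-soft replicate 1, LPA-to-FAKi replicate 1 or soft-to-soft replicate 2, and was lost without any of the other 9, with an adjusted p of up to 0.205. Without soft-to-soft replicates 1 and 2 the log2 change was -0.53 with an adjusted p of 0.360. DESeq2 with the block gave an adjusted p of 0.000185 and called 1 of 40 members in this comparison, against 2.65% of its genes. In the edgeR fit with the block, 3 of 12 epithelial markers were also called, all lower in stiff-to-soft cells: the desmosomal cadherin DSG3 at -0.66 (adjusted p = 0.0040), KRT17 at -0.75 (adjusted p = 0.0185) and KRT14 at -1.68 (adjusted p = 0.0480), both keratins. Their part in the PPP1R15A difference was not tested. No other member passed for stiff-to-soft over soft-to-soft. PPP1R15B, the constitutive eIF2α phosphatase subunit, had 73.5, 72.1 and 85.3 CPM in stiff-to-soft replicates 3, 2 and 1, against 83.9, 85.1 and 92.1 CPM in soft-to-soft, and its block log2 change was -0.18 ± 0.06 (adjusted p = 0.26). It too was lower in all 3 pairs, with overlapping conditions and no call.

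Apart from PPP1R15A, neither ATF4 nor any other gene of its arm passed, and several had positive values. ATF4 mRNA itself had 397, 575 and 456 CPM in stiff-to-soft replicates 3, 2 and 1, against 406, 546 and 412 CPM in soft-to-soft. The highest same-sign members were ASNS (asparagine synthetase) at 0.30 ± 0.17 (adjusted p = 0.611), TRIB3 (a pseudokinase that restrains ATF4) at 0.27 ± 0.132 (adjusted p = 0.541) and PSAT1 (phosphoserine aminotransferase of serine synthesis) at 0.26 ± 0.135 (adjusted p = 0.575). Their replicate 1 pairs differed most, by 0.61, 0.62 and 0.56, and their replicate 3 pairs least, by 0.06, 0.08 and 0.02. HSPA5, the ER chaperone BiP, was lower in all 3 pairs at -0.06 ± 0.0752 (adjusted p = 0.864). Without the block, the median log2 change was 0.07 over the ATF4 arm, with 16 of 23 genes above 0, and 0.05 over the ER arm, with 13 of 17 above 0, against -0.006 over all genes. With any 1 library left out, these medians ran from -0.04 to 0.15 in the ATF4 arm and from -0.05 to 0.13 in the ER arm, and without soft-to-soft replicates 1 and 2 they were 0.055 and -0.018.

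LPA conditioning was compared with untreated soft gel to ask whether the lipid could stand in for stiffness. With the block, 0 of 40 members and 0% of genes were called for LPA-to-soft over soft-to-soft by edgeR's quasi-likelihood test. At an unadjusted p under 0.05 there were 5 members (12.5%) and 7.97% of genes. DESeq2 with the block called 0 members, against 0.615% of its genes. ERN1, the IRE1 sensor, was highest among same-sign members at 0.31 ± 0.131 (adjusted p = 0.603), followed by ALDH1L2, a mitochondrial folate enzyme, at 0.27 ± 0.172 (adjusted p = 0.735) and TRIB3 at 0.18 ± 0.132 (adjusted p = 0.768). PPP1R15A was lowest at -0.29 ± 0.0911 (adjusted p = 0.497), before SLC3A2, the heavy chain of the large amino acid transporter, at -0.13 ± 0.0962 (adjusted p = 0.772) and HSPA5 at -0.08 ± 0.0752 (adjusted p = 0.812). PPP1R15A had 323, 211 and 329 CPM in LPA-to-soft replicates 3, 2 and 1, again each below soft-to-soft of the same number. This comparison and the previous one share the soft-to-soft libraries, so a like sign in both is partly built in. The arm medians without the block were 0.03 (ATF4 arm) and -0.03 (ER arm), against -0.01 over all genes, and 0.062 and -0.070 without soft-to-soft replicates 1 and 2.

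FAK inhibition after LPA was compared with LPA alone to ask what the inhibitor changed. With the block, edgeR's quasi-likelihood test again called 0 of 40 members and 0% of genes for LPA-to-FAKi over LPA-to-soft, with 10 members (25%) and 22.3% of genes at an unadjusted p under 0.05. DESeq2 with the block called 4 members, namely CEBPB, SDF2L1, ALDH1L2 and SLC3A2, and 8.49% of its 13830 genes. CEBPB and SDF2L1 had higher values in the inhibitor library of all 3 pairs, and NUPR1, ALDH1L2 and DDIT3 had lower ones. The arm medians without the block were -0.03 (ATF4 arm) and -0.04 (ER arm), against -0.005 over all genes.

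NUPR1, a small stress-induced chromatin protein, had 19.2, 17.0 and 10.7 CPM in LPA-to-FAKi replicates 3, 2 and 1, against 23.9, 39.2 and 24.7 CPM in LPA-to-soft. All 3 inhibitor libraries lay below all 3 LPA-to-soft libraries. The block log2 change was -0.91 ± 0.273 (adjusted p = 0.109), with same-number differences of -0.31, -1.21 and -1.20. Relative to the LPA-to-FAKi libraries, NUPR1 in stiff-to-soft cells, at 28.6, 43.1 and 25.0 CPM, differed by 1.04 ± 0.273 (adjusted p = 0.167) with the block, and those groups did not overlap either. Soft-to-soft cells had 27.8, 15.5 and 25.9 CPM, and replicate 2 lay within the inhibitor range. Without soft-to-soft replicates 1 and 2, the block fit called NUPR1 at -0.90 (adjusted p = 0.0394) for LPA-to-FAKi over LPA-to-soft and at 1.03 (adjusted p = 0.0143) for stiff-to-soft over LPA-to-FAKi. Without soft-to-soft replicate 2 alone, LPA-to-FAKi over soft-to-soft gave -0.99 with an adjusted p of 0.0277. Of the fits that left out 1 library, only that one called NUPR1 between conditions.

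DDIT3, the pro-apoptotic factor CHOP, had 13.7, 13.8 and 11.97 CPM in LPA-to-FAKi replicates 3, 2 and 1, against 16.0, 20.8 and 14.8 CPM in LPA-to-soft and 17.7, 15.3 and 19.7 CPM in soft-to-soft. Each inhibitor library was below both others of its number, and all 3 lay below every LPA-to-soft and soft-to-soft library. The block log2 changes were -0.38 ± 0.138 (adjusted p = 0.148) over LPA-to-soft and -0.43 ± 0.139 (adjusted p = 0.169) over soft-to-soft, both against shared LPA-to-FAKi libraries. Without soft-to-soft replicate 2, the change over soft-to-soft became -0.62 with an adjusted p of 0.0266. That library had the lowest DDIT3 level of its condition, and no other fit that left out 1 library called DDIT3 between conditions. ALDH1L2 had 33.6, 33.8 and 23.4 CPM in LPA-to-FAKi replicates 3, 2 and 1, against 35.0, 54.8 and 42.6 CPM in LPA-to-soft. The inhibitor libraries were all below the LPA-to-soft libraries, by little in replicate 3, and the block log2 change was -0.53 ± 0.173 (adjusted p = 0.12).

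CEBPB, a C/EBP factor that can dimerise with ATF4, had 103, 87.2 and 105 CPM in LPA-to-FAKi replicates 3, 2 and 1, against 80.1, 74.4 and 80.0 CPM in LPA-to-soft and 78.6, 73.9 and 84.9 CPM in soft-to-soft. The inhibitor libraries were above all 6 of these libraries. The block log2 changes were 0.33 ± 0.0785 (adjusted p = 0.0853) over LPA-to-soft and 0.31 ± 0.0786 (adjusted p = 0.104) over soft-to-soft. Without soft-to-soft replicate 2, the change over LPA-to-soft was 0.32 with an adjusted p of 0.0495. No other fit that left out 1 library called CEBPB between conditions. SDF2L1, an ER chaperone cofactor that works with BiP, had 32.7, 34.8 and 24.3 CPM in LPA-to-FAKi replicates 3, 2 and 1, against 25.6, 20.7 and 17.4 CPM in LPA-to-soft. It was higher in every pair, although LPA-to-FAKi replicate 1 lay below LPA-to-soft replicate 3. The block log2 change was 0.52 ± 0.134 (adjusted p = 0.0863), which became 0.53 with an adjusted p of 0.0381 without soft-to-soft replicates 1 and 2. Of the fits that left out 1 library, only that without soft-to-soft replicate 2 called SDF2L1 between conditions. After SDF2L1, CRELD2, an ER protein with disulphide isomerase activity, came next at 0.17 ± 0.0735 (adjusted p = 0.203).

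**Figure D2:**
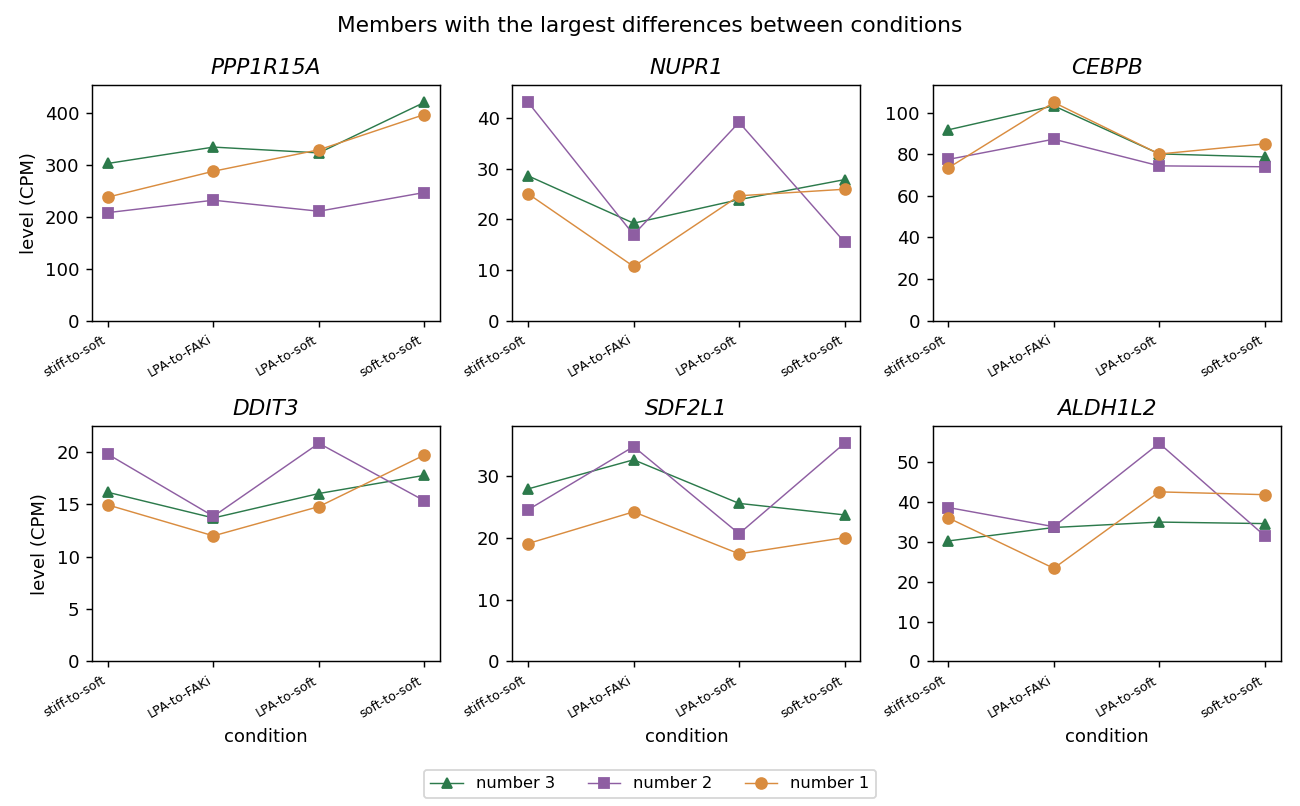
CPM (y, from 0) of 6 members picked for display: PPP1R15A, NUPR1, CEBPB, DDIT3, SDF2L1 and ALDH1L2. Libraries (x) are stiff-to-soft, LPA-to-FAKi, LPA-to-soft and soft-to-soft, with a line joining those of each replicate number. VLDLR, with a larger change than some of the 6, is not shown. NUPR1 sits between 10.7 and 19.2 CPM in LPA-to-FAKi and between 23.9 and 39.2 CPM in LPA-to-soft, while PPP1R15A is lower in stiff-to-soft than in soft-to-soft along each of the 3 lines.

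For LPA-to-FAKi over soft-to-soft, the block fit called 0 of 40 members, against 0.564% of all genes. At an unadjusted p under 0.05 there were 7 members (17.5%) and 16.6% of genes. DESeq2 with the block called 1 of 40 members, CEBPB, against 3.87% of its genes. Besides DDIT3 and CEBPB, the lowest same-sign members were PPP1R15A at -0.30 ± 0.0912 (adjusted p = 0.152) and VLDLR, a lipoprotein receptor that ATF4 can induce, at -0.29 ± 0.156 (adjusted p = 0.382). The highest were ERN1 at 0.33 ± 0.132 (adjusted p = 0.243) and GPT2, a mitochondrial alanine aminotransferase, at 0.27 ± 0.127 (adjusted p = 0.32). The arm medians without the block were 0.04 over the ATF4 arm and -0.03 over the ER arm, and 0.18 and -0.058 without soft-to-soft replicates 1 and 2.

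The 2 learned conditions were set against each other as well. For stiff-to-soft over LPA-to-soft, the block fit called 0 of 40 members against 0.00648% of genes. At an unadjusted p under 0.05 there were 2 members (5%) and 9.42% of genes. DESeq2 with the block called 0 members, against 0.958% of its genes. CRELD2 at 0.18 ± 0.0734 (adjusted p = 0.514), SDF2L1 at 0.16 ± 0.134 (adjusted p = 0.695) and HYOU1, a large ER chaperone, at 0.16 ± 0.0684 (adjusted p = 0.522) were the highest same-sign members. ALDH1L2 at -0.33 ± 0.172 (adjusted p = 0.57), ERN1 at -0.23 ± 0.13 (adjusted p = 0.593) and PPP1R15A at -0.19 ± 0.0912 (adjusted p = 0.543) were the lowest. None of these passed, and the missing calls do not show that the levels were equal. The arm medians without the block were 0.01 (ATF4 arm) and 0.05 (ER arm).

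For stiff-to-soft over LPA-to-FAKi, the block fit called 0 of 40 members against 0.0324% of genes. At an unadjusted p under 0.05 there were 7 members (17.5%) and 12.5% of genes. DESeq2 with the block called 0 members, against 2.33% of its genes. After NUPR1, the highest same-sign members were VLDLR at 0.47 ± 0.155 (adjusted p = 0.262) and DDIT3 at 0.36 ± 0.138 (adjusted p = 0.324). The lowest were SDF2L1 at -0.35 ± 0.134 (adjusted p = 0.314), CEBPB at -0.28 ± 0.0786 (adjusted p = 0.196) and SLC7A5, the light chain of the large amino acid transporter, at -0.27 ± 0.0973 (adjusted p = 0.299). VLDLR had 7.81, 10.2 and 10.46 CPM in stiff-to-soft replicates 3, 2 and 1, against 6.70, 6.89 and 6.67 CPM in LPA-to-FAKi. Every stiff-to-soft library was higher, and the replicate 3 gap was the smallest. The arm medians without the block were 0.07 (ATF4 arm) and 0.08 (ER arm), and for learned over not learned they were 0.07 and 0.03.

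Learned cells were compared with not learned cells, the contrast the study's design names. With the block, 0 of 40 members were called against 0.00648% of genes. The test of any condition called 0 of 40 against 0.214%. Unadjusted p under 0.05 was reached by 6 members (15%) and 9.94% of genes for the class and by 8 members (20%) and 18.2% of genes for any condition. DESeq2 with the block called 0 members for the class, against 0.933% of its genes. For any condition it called 3 of 40 (CEBPB, PPP1R15A and SDF2L1), against 9.07% of its genes. The class log2 changes with the block were highest for NUPR1 at 0.64 ± 0.222 (adjusted p = 0.398), VLDLR at 0.30 ± 0.119 (adjusted p = 0.452) and ALDH1L2 at 0.24 ± 0.142 (adjusted p = 0.594), and lowest for SDF2L1 at -0.33 ± 0.106 (adjusted p = 0.359), PPP1R15A at -0.25 ± 0.0936 (adjusted p = 0.443) and SLC3A2 at -0.19 ± 0.0747 (adjusted p = 0.452). NUPR1 spanned 23.9 to 43.1 CPM in the 6 learned libraries and 10.7 to 27.8 CPM in the 6 not learned libraries, and the ranges overlapped.

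**Figure D3:**
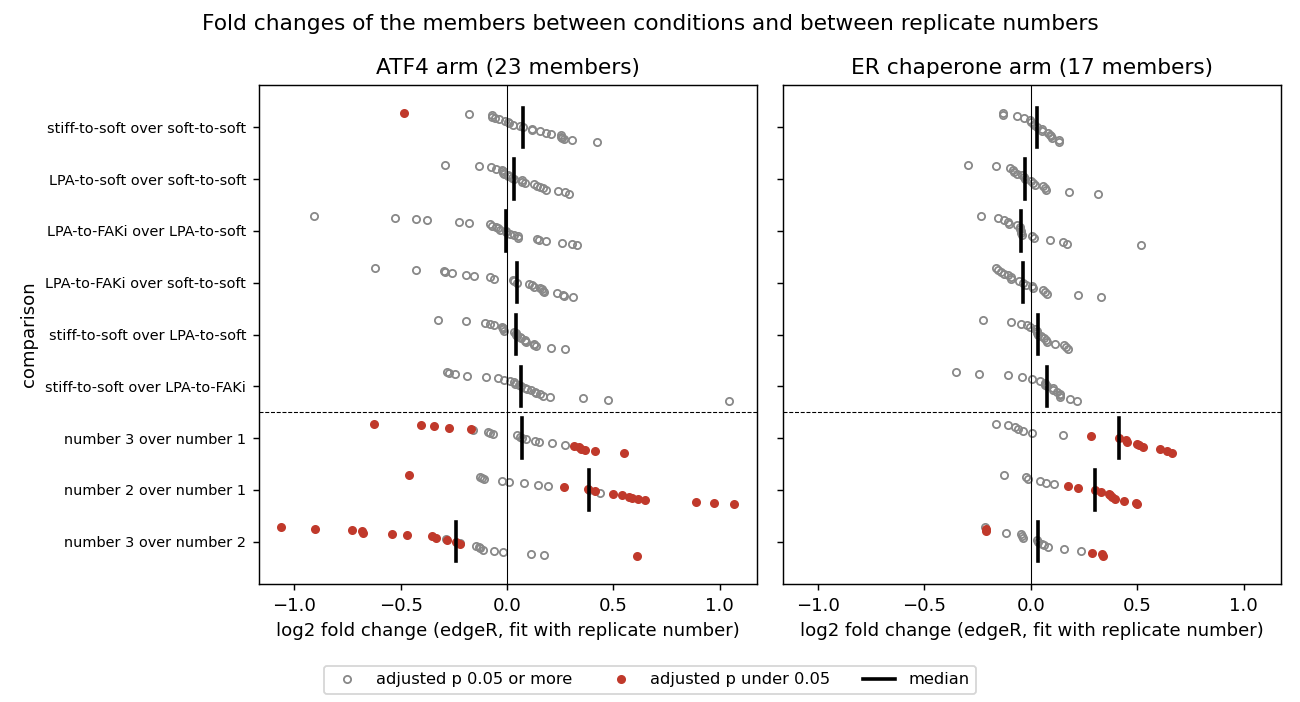
Log2 fold change with the block (x) of each member, ATF4 arm on the left and ER chaperone arm on the right, in the 6 comparisons of conditions and the 3 comparisons of replicate numbers (y); filled red points have an adjusted p under 0.05 and bars are medians. The condition comparisons hold 1 red point, PPP1R15A at -0.49, while the number comparisons hold 21 (3 over 1), 24 (2 over 1) and 18 (3 over 2).

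More members passed for replicate number than for any difference between conditions. With condition as a term beside it, replicate number passed the test for 28 of 40 members (70%) against 52.3% of all genes. These were 17 of 23 ATF4 arm genes (73.9%) and 11 of 17 ER arm genes (64.7%). Since the members were chosen with earlier results known, these shares and those below are descriptive. The arms followed different numbers: the mean level was highest in number 2 for 18 of 23 ATF4 arm genes (78.3%, against 30.7% of all genes) and highest in number 3 for 10 of 17 ER arm genes (58.8%, against 32.7%). The ER arm was lowest in number 1 for 11 of 17 genes (64.7%, against 36.9%). What distinguishes the numbers is not in the labels, so culture, day and handling cannot be told apart here.

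The pairwise counts repeat this order only in part. For the ER arm, the calls set number 1 low rather than number 3 high. For 3 over 2, 3 ER arm genes were higher (17.6%, against 11.6% of all genes) and 2 were lower. Number 3 over number 1 gave 16 members higher, against 20.6% of all genes, of which 6 were in the ATF4 arm and 10 in the ER arm; 5 members were lower, against 19.2%, all in the ATF4 arm. The count of 5 rested on few libraries: it was 1 without stiff-to-soft replicate 1 or replicate 3, 2 without LPA-to-soft replicate 3, and 3 without LPA-to-FAKi replicate 3, soft-to-soft replicate 1 or soft-to-soft replicate 3; without soft-to-soft replicates 1 and 2 it was 2. Number 2 over number 1 gave 23 members higher (12 ATF4 arm, 11 ER arm), against 19.0% of genes, and 1 lower, against 17.0%. Number 3 over number 2 gave 4 higher, against 11.6% of genes, and 14 lower (12 ATF4 arm, 2 ER arm), against 12.2%. Those 18 calls became 10 without LPA-to-soft replicate 2 and 11 without stiff-to-soft replicate 3. Median log2 changes were 0.07 (ATF4 arm) and 0.42 (ER arm) for 3 over 1, 0.38 and 0.30 for 2 over 1, and -0.24 and 0.03 for 3 over 2; over all genes they were -0.003, 0.000 and -0.009.

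The transcription factors divided. ATF4 had 397, 391, 408 and 406 CPM in number 3, 575, 528, 571 and 546 CPM in number 2 and 456, 469, 372 and 412 CPM in number 1, in the order stiff-to-soft, LPA-to-FAKi, LPA-to-soft and soft-to-soft. All 4 libraries numbered 2 lay above the other 8. The log2 change was 0.38 ± 0.0706 (adjusted p = 0.00193) for 2 over 1 and -0.47 ± 0.0706 (adjusted p = 0.00155) for 3 over 2. CEBPG, a C/EBP partner of ATF4, averaged 40.9 ± 1.59 CPM in number 3, 52.4 ± 3.21 CPM in number 2 and 51.9 ± 3.17 CPM in number 1 (SD, n = 4 each). It was thus low in number 3 alone, at -0.34 ± 0.0639 (adjusted p = 0.0016) over number 1 and -0.36 ± 0.0638 (adjusted p = 0.00365) over number 2. DDIT3, CEBPB and NUPR1 did not pass for replicate number (adjusted p over the 3 numbers of 0.358, 0.112 and 0.358).

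The enzymes that make asparagine and serine differed widely between numbers. ASNS had 40.8, 44.1, 46.5 and 39.3 CPM in number 3, 80.3, 70.0, 101 and 69.5 CPM in number 2 and 53.4, 43.8, 31.5 and 35.0 CPM in number 1. Number 2 did not overlap the others, and its LPA-to-soft library was the highest of the 12 while LPA-to-soft replicate 1 was the lowest. The log2 change was 0.97 ± 0.149 (adjusted p = 0.000673) for 2 over 1 and -0.90 ± 0.147 (adjusted p = 0.00234) for 3 over 2. PSAT1 had 203, 211, 220.2 and 201 CPM in number 3, 356, 309, 409.9 and 316 CPM in number 2 and 208, 178, 138 and 142 CPM in number 1, again with number 2 above all others. Its log2 change was 1.07 ± 0.118 (adjusted p = 0.000117) for 2 over 1, 0.34 ± 0.117 (adjusted p = 0.0399) for 3 over 1 and -0.73 ± 0.117 (adjusted p = 0.00214) for 3 over 2. The PSAT1 call for 3 over 1 was lost in 6 of 17 alternative fits, with values of 0.20 to 0.45 and an adjusted p of up to 0.154; the lowest value came without LPA-to-soft replicate 1. PHGDH, the first enzyme of serine synthesis, differed from ASNS in being high in both numbers 3 and 2, at 139.9 ± 8.19, 143 ± 21.0 and 95.9 ± 10.98 CPM in numbers 3, 2 and 1, with log2 changes of 0.55 ± 0.0948 (adjusted p = 0.00102) for 3 over 1 and 0.57 ± 0.0949 (adjusted p = 0.00102) for 2 over 1.

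The remaining enzymes differed in which number was lowest. PSPH, which completes serine synthesis, averaged 66.7 ± 1.02, 77.9 ± 4.56 and 51.8 ± 3.60 CPM in numbers 3, 2 and 1, and 93.2% of its sum of squares lay between numbers. Its log2 changes were 0.37 ± 0.0557 (adjusted p = 0.000476) for 3 over 1, 0.59 ± 0.0558 (adjusted p = 5.66e-05) for 2 over 1 and -0.22 ± 0.0555 (adjusted p = 0.0166) for 3 over 2. SHMT2, the mitochondrial serine hydroxymethyltransferase, changed by 0.41 ± 0.057 (adjusted p = 0.00027) for 3 over 1 and 0.54 ± 0.057 (adjusted p = 9.08e-05) for 2 over 1. MTHFD2, the mitochondrial folate dehydrogenase, changed by 0.32 ± 0.0751 (adjusted p = 0.00653) for 3 over 1, 0.65 ± 0.0753 (adjusted p = 0.000147) for 2 over 1 and -0.33 ± 0.075 (adjusted p = 0.0104) for 3 over 2. GPT2 was high in number 2 alone, at 0.62 ± 0.111 (adjusted p = 0.00158) for 2 over 1 and -0.68 ± 0.11 (adjusted p = 0.00221) for 3 over 2. ALDH1L2 did not pass, at 0.15 ± 0.149 (adjusted p = 0.482) for 2 over 1.

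Among the amino acid transporters, SLC7A5 averaged 2316 ± 318, 2549 ± 209.9 and 1818 ± 258 CPM in numbers 3, 2 and 1. It changed by 0.35 ± 0.0843 (adjusted p = 0.00723) for 3 over 1 and 0.50 ± 0.0846 (adjusted p = 0.00119) for 2 over 1. Its partner SLC3A2 was higher in number 2, at 0.41 ± 0.0836 (adjusted p = 0.0031) over number 1, and lower in number 3 than in number 2, at -0.28 ± 0.0835 (adjusted p = 0.0315). SLC7A1, a cationic amino acid transporter, was also lower in number 3 than in number 2, at -0.24 ± 0.0607 (adjusted p = 0.0168). The 3 over 2 calls were lost in 7 of 17 alternative fits for SLC3A2 and 5 of 17 for SLC7A1, including without soft-to-soft replicates 1 and 2. SLC38A2, the neutral amino acid transporter SNAT2, did not pass, at 0.09 ± 0.0673 (adjusted p = 0.321) for 3 over 1.

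The feedback and effector genes did not move as a block. TRIB3 had 56.4, 62.0, 58.4 and 53.6 CPM in number 3, 94.1, 82.1, 105 and 87.2 CPM in number 2 and 60.3, 58.2, 43.4 and 39.2 CPM in number 1, with number 2 above all others and log2 changes of 0.89 ± 0.115 (adjusted p = 0.000278) for 2 over 1 and -0.68 ± 0.114 (adjusted p = 0.00273) for 3 over 2. CHAC1, a glutathione-degrading enzyme, had 6.998, 5.57, 6.43 and 6.60 CPM in number 3, 13.5, 12.8, 14.9 and 12.2 CPM in number 2 and 12.3, 13.0, 6.397 and 8.58 CPM in number 1. Number 2 was uniformly high, whereas in number 1 the stiff-to-soft and LPA-to-FAKi libraries were about as high and the others low. Its log2 change was -0.63 ± 0.183 (adjusted p = 0.0186) for 3 over 1 and -1.06 ± 0.182 (adjusted p = 0.00299) for 3 over 2, and 0.44 ± 0.181 (adjusted p = 0.083) for 2 over 1 did not pass. SESN2, a leucine sensor that restrains mTORC1, fell in number 3, at -0.27 ± 0.0866 (adjusted p = 0.0272) over number 1 and -0.54 ± 0.0866 (adjusted p = 0.00212) over number 2, and rose in number 2, at 0.27 ± 0.0865 (adjusted p = 0.0316) over number 1. Its calls against number 1 were lost in 8 of 17 alternative fits for number 3 and in 7 of 17 for number 2, where the change was 0.18 without LPA-to-soft replicate 1 and 0.17 without LPA-to-soft replicate 2 (adjusted p of up to 0.147). The CHAC1 call for 3 over 1 was lost in 4 of 17, without stiff-to-soft or LPA-to-FAKi replicate 1 or 3.

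PPP1R15A had the opposite order of means to ATF4. Its means were 345 ± 51.8, 224 ± 18.3 and 313 ± 67.2 CPM in numbers 3, 2 and 1 (SD, n = 4 each), lowest where ATF4 and ASNS were highest. It was lower in number 2 than in number 1 in all 4 conditions, at -0.46 ± 0.0792 (adjusted p = 0.00125), and was the only member lower there; it was higher in number 3 than in number 2 at 0.61 ± 0.0792 (adjusted p = 0.000759). PPP1R15B changed by -0.17 ± 0.052 (adjusted p = 0.0226) for 3 over 1. VLDLR fell in number 3 relative to number 1, at -0.40 ± 0.135 (adjusted p = 0.0342), although its test over all numbers did not pass (adjusted p = 0.0618). The VLDLR and PPP1R15B calls for 3 over 1 were each lost in 6 of 17 alternative fits, and the VLDLR value was -0.26 without LPA-to-soft replicate 3.

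**Figure D4:**
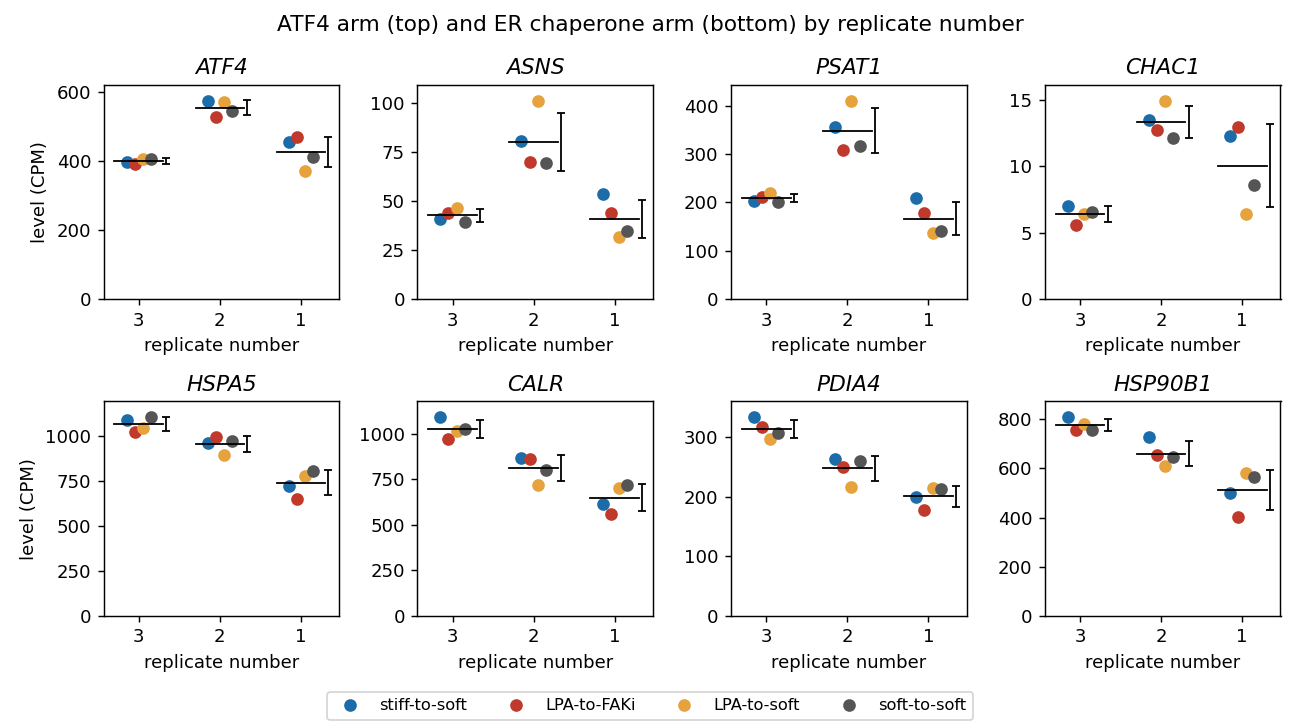
CPM (y, from 0) of ATF4, ASNS, PSAT1 and CHAC1 (top) and HSPA5, CALR, PDIA4 and HSP90B1 (bottom) in libraries numbered 3, 2 and 1 (x), 1 point per library with the mean (line) and SD (bar) of 4 libraries. The top genes peak in number 2, as ATF4 at 555 ± 22.3 CPM, and the bottom genes in number 3, as CALR at 1026 ± 48.1 CPM.

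The ER chaperones HSPA5, HSP90B1 and CALR were lowest in number 1 and highest in number 3. HSPA5 had 1087, 1017, 1041 and 1101 CPM in number 3, 959, 991, 889 and 968 CPM in number 2 and 723, 649, 778 and 805 CPM in number 1. The 3 numbers did not overlap. Its log2 change was 0.52 ± 0.0653 (adjusted p = 0.000141) for 3 over 1 and 0.37 ± 0.0652 (adjusted p = 0.00147) for 2 over 1. HSP90B1, the ER chaperone GRP94, had 808, 756, 782 and 757 CPM in number 3, 729, 653, 608 and 646 CPM in number 2 and 499.9, 401, 579.9 and 565 CPM in number 1, likewise without overlap, with changes of 0.61 ± 0.0933 (adjusted p = 0.000502) and 0.37 ± 0.0932 (adjusted p = 0.00977). CALR, the calcium-binding chaperone calreticulin, had 1090.0, 974, 1015 and 1026 CPM in number 3, 869, 863, 718 and 803 CPM in number 2 and 617, 557, 701 and 717 CPM in number 1. Each number was again apart from the next, narrowly so between numbers 2 and 1, and the changes were 0.66 ± 0.0866 (adjusted p = 0.000186) for 3 over 1, 0.33 ± 0.0864 (adjusted p = 0.0123) for 2 over 1 and 0.33 ± 0.0862 (adjusted p = 0.0188) for 3 over 2. These 3 genes hold ERSE copies printed above. Of the others that do, CRELD2 had the same order of means and XBP1 was highest in number 2. PDIA4, PDIA6, HYOU1, MANF and DNAJC3, with no ERSE in the window searched, had that order of means too. A link between the element and these levels was not tested.

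The ER disulphide isomerases followed the same order. PDIA4 had 333, 316, 296 and 307 CPM in number 3, 264, 250.3, 217 and 259 CPM in number 2 and 199, 177, 214 and 214 CPM in number 1. No numbers overlapped, and the log2 changes were 0.64 ± 0.0742 (adjusted p = 9.14e-05) for 3 over 1, 0.30 ± 0.074 (adjusted p = 0.0092) for 2 over 1 and 0.34 ± 0.0739 (adjusted p = 0.00875) for 3 over 2. PDIA6 averaged 398 ± 12.9, 326 ± 21.5 and 281 ± 32.2 CPM in numbers 3, 2 and 1, with changes of 0.51 ± 0.074 (adjusted p = 0.000368), 0.22 ± 0.0739 (adjusted p = 0.0382) and 0.29 ± 0.0738 (adjusted p = 0.0183) for 3 over 1, 2 over 1 and 3 over 2. PDIA4, PDIA6 and CALR were the ER arm genes called higher in number 3 than in number 2. For PDIA6 that call was lost in 6 of 17 alternative fits and the call for 2 over 1 in 7 of 17, with a value of 0.15 without LPA-to-FAKi replicate 1. For CALR they were lost in 3 and 2 of 17.

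HYOU1, MANF, CRELD2 and SDF2L1 were low in number 1 and did not pass for 3 over 2. HYOU1 changed by 0.42 ± 0.0593 (adjusted p = 0.000332) for 3 over 1 and 0.38 ± 0.0594 (adjusted p = 0.000733) for 2 over 1. MANF, a secreted BiP-binding survival factor, changed by 0.50 ± 0.0619 (adjusted p = 0.000136) and 0.44 ± 0.0619 (adjusted p = 0.000449) in the same comparisons. CRELD2 changed by 0.45 ± 0.0638 (adjusted p = 0.000326) and 0.40 ± 0.0638 (adjusted p = 0.000871), and SDF2L1 by 0.45 ± 0.116 (adjusted p = 0.00975) and 0.50 ± 0.116 (adjusted p = 0.00689). All 4 were higher than in number 1 in each of the 4 conditions, in number 3 as in number 2. DNAJB9 and DNAJC3, J-domain cochaperones of BiP, did not pass, at -0.11 ± 0.113 (adjusted p = 0.488) and 0.15 ± 0.0602 (adjusted p = 0.0671) for 3 over 1.

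Among the sensors and degradation factors, only XBP1 and HERPUD1 were called between replicate numbers. XBP1 mRNA had 73.9, 78.1, 83.1 and 79.7 CPM in number 3, 96.5, 86.7, 97.4 and 83.6 CPM in number 2 and 67.7, 65.3, 60.2 and 65.4 CPM in number 1. All 4 libraries numbered 2 were above the rest and all 4 numbered 1 below, with log2 changes of 0.49 ± 0.0667 (adjusted p = 0.00035) for 2 over 1, 0.28 ± 0.0666 (adjusted p = 0.006) for 3 over 1 and -0.21 ± 0.0665 (adjusted p = 0.0427) for 3 over 2. HERPUD1, a membrane organiser of ER-associated degradation, was also highest in number 2, at 0.18 ± 0.0605 (adjusted p = 0.0427) for 2 over 1 and -0.21 ± 0.0605 (adjusted p = 0.0286) for 3 over 2. Both HERPUD1 calls stood near the threshold: the call for 2 over 1 was lost in 13 of 17 alternative fits (adjusted p of up to 0.179) and that for 3 over 2 in 7 of 17 (adjusted p of up to 0.111). The XBP1 call for 3 over 2 was lost in 9 of 17. ERN1, EIF2AK3, ATF6 and EDEM1, a degradation lectin, did not pass for any pair of numbers. Their levels over the 12 libraries ran from 4.88 to 7.69 CPM for ERN1, 17.8 to 22.3 CPM for EIF2AK3, 48.9 to 55.4 CPM for ATF6 and 66.5 to 82.5 CPM for EDEM1.

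Each member's sum of squares of log2 CPM was split into a share between the 4 conditions, a share between the 3 numbers and a remainder. By chance alone, 4 conditions take a larger share than 3 numbers do. Over the 40 members the median share was 12.3% for condition and 74.0% for number, against 19.3% and 50.5% over all genes. Number exceeded condition for 30 of 40 members (75%), near the 73.2% of all genes. Condition exceeded number for 10 members: CEBPB at 63.0% against 18.1%, ATF6 at 63.0% against 5.26%, ERN1 at 61.6% against 5.78%, EDEM1 at 59.3% against 7.58%, NUPR1 at 57.1% against 7.69%, DDIT3 at 51.3% against 11.1%, SLC38A2 at 45.3% against 17.0%, ALDH1L2 at 44.5% against 10.0%, VLDLR at 39.4% against 33.4% and DNAJB9 at 29.1% against 23.9%. The remainder was 47.1% for DNAJB9 and 45.4% for ALDH1L2, more than either share of these genes. These are descriptions with no test, and for genes of small span such as ATF6 a large share is a share of little.

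**Figure D5:**
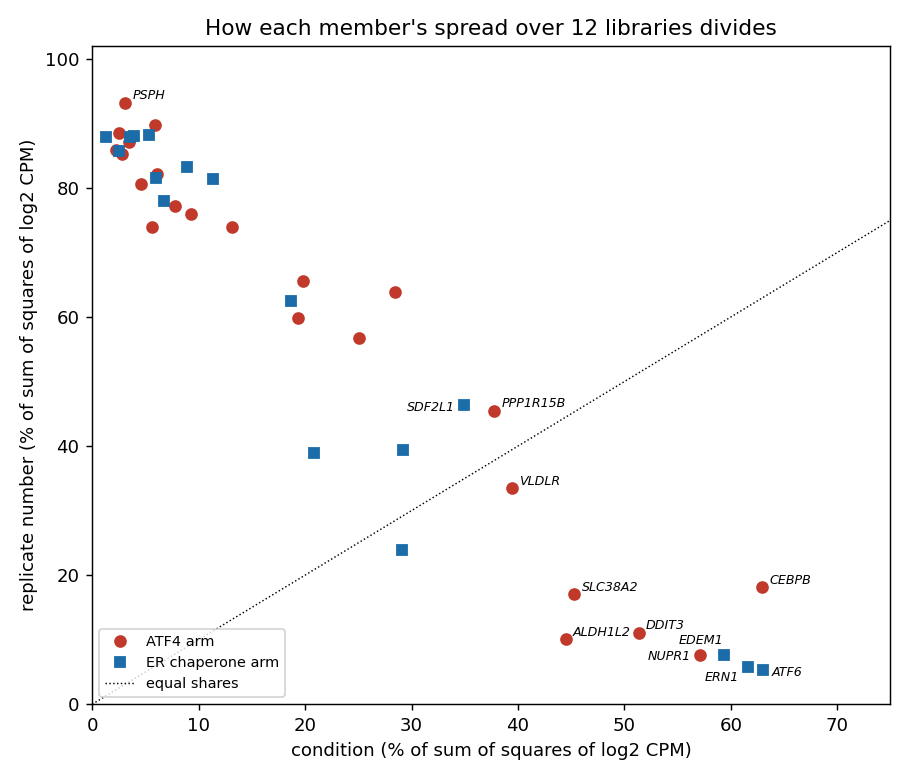
Percent of each member's sum of squares of log2 CPM lying between conditions (x) and between replicate numbers (y), with both arms and labelled members. Most members lie near the upper left, as PSPH with 93.2% between numbers, and CEBPB and NUPR1 lie to the lower right with 63.0% and 57.1% between conditions.

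Related genes outside the 40, in lists also chosen with earlier results known, differed between numbers too. The shares of all genes called higher and lower were 20.6% and 19.2% for 3 over 1, 19.0% and 17.0% for 2 over 1, and 11.6% and 12.2% for 3 over 2. Of 12 cytosolic tRNA synthetases, which ATF4 induces in part, 12 were higher in number 2 than in number 1 (median 0.40, led by AARS at 0.60, GARS at 0.54 and YARS at 0.51) and 11 were lower in number 3 than in number 2 (median -0.30), while 3 were higher in number 3 than in number 1. Of 23 tested further genes of the integrated stress response, 12 rose and none fell for 2 over 1 (JDP2 0.84, CBS 0.76, SLC7A11 0.75), while 3 rose and 11 fell for 3 over 2. For 3 over 1, 10 rose, led by GDF15 at 1.68, DDIT4 at 1.30 and ATF3 at 0.99, and 4 fell, led by VEGFA at -0.74. For 3 over 2, the 3 that rose were ATF3 at 1.23, the stress cytokine GDF15 at 1.10 and the mTORC1 inhibitor DDIT4 at 0.83, and the 11 that fell were led by INHBE at -2.16, STC2 at -1.13 and CTH at -0.68. ATF3, GDF15 and DDIT4 were thus, like PPP1R15A, higher in number 3 than in number 2, whereas ASNS was lower.

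Of 60 tested further genes of ER folding, translocation and export, 29 rose and 1 fell for 3 over 1 (BET1 0.53, LMAN1 0.49, PDIA3 0.46; EDEM3 -0.18), 22 rose and none fell for 2 over 1, and 6 rose and 1 fell for 3 over 2. Of 13 genes of eIF2, its exchange factor, kinases and phosphatase, 8 rose for 3 over 1, led by the kinase PKR (EIF2AK2) at 0.60, and 5 rose for 2 over 1. Of 25 cytosolic and mitochondrial heat shock genes, 17 rose and 2 fell for 2 over 1 (HSPB8 1.05, HSPA1B 0.85 and HSPA1A 0.78; CRYAB -1.31 and HSPB1 -0.42), and 1 rose and 6 fell for 3 over 2. None of these lists held a gene called between conditions with the block.

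Other features moved with the numbers. Summed epithelial markers were 9457 to 11342 CPM in number 3, 8856 to 12504 CPM in number 2 and 12906 to 15596 CPM in number 1. These sums mix opposite calls. For 2 over 1, 3 of 12 epithelial markers rose, namely KRT8 at 1.46, KRT18 at 0.91 and EPCAM at 0.45, and 8 fell, among them KRT14 at -1.68, DSG3 at -1.56, KRT17 at -1.15 and KRT5 at -0.59. For 3 over 1, 3 rose and 6 fell, and for 3 over 2, 3 rose and 2 fell. Summed fibroblast markers were 15.8 to 20.9, 14.6 to 21.1 and 26.0 to 37.3 CPM in numbers 3, 2 and 1, leukocyte markers 14.7 to 20.4, 21.2 to 35.0 and 21.5 to 51.8 CPM, and endothelial markers 15.2 to 25.3, 16.0 to 37.7 and 5.93 to 14.9 CPM. Among the endothelial markers, CDH5 rose by 1.42 and VWF changed by -0.89 for 2 over 1, both called. Their part in the differences between numbers was not tested. The number of members higher in 3 than in 1 was 16 also without soft-to-soft replicates 1 and 2, and for 2 over 1 it was 24; for 3 over 2, 3 were then higher and 11 lower.

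Some members share sequence with other rows of the table or overlap another gene. The strand setting of the counting is not given in the sources used here, so reads of opposite-strand neighbours may be mixed for DDIT3 and MARS, MTHFD2 and SLC4A5, PDIA6 and ATP6V1C2, CEBPB and CEBPB-AS1, VLDLR and VLDLR-AS1, CRELD2 and ALG12, ALDH1L2 and C12orf45, and DNAJB9 and THAP5, whose exons overlap in the GENCODE annotation of GRCh38. The same holds for EIF2AK3 and AC104134.1, HYOU1 and AP003392.3, and EDEM1 and AC026202.3, among others. ASNS shares 1985 exon bases with AC079781.5 on the same strand, the largest overlap of a member. Reads there may be mixed under any strand setting. Near-identical copies were counted apart, with totals over all libraries of 290 for HSP90B2P, 21 for MTHFD2P1, 2094 for SLC7A5P1 and 2090 for SLC7A5P2, so their share of the HSP90B1, MTHFD2 and SLC7A5 counts is uncertain.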

How the data were processed

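The 12 Cal27 libraries, 3 for each of 4 conditions, were analysed from raw counts per gene symbol that the authors deposited. Per the submitters' processing notes, the tools were cutadapt, FastQC, STAR, HTSeq and DESeq2 and the build was hg19. The library kit was a stranded one per the labels. The sources used here give no versions, annotation or strand setting. The deposited normalized table was not used. Symbols turned into dates numbered 28 and held 0.178% of all counts.

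The members and all gene lists were chosen with earlier results of these data known. Counts were tested with edgeR 4.0.16 (limma 3.58.1, R 4.3.3): filterByExpr by condition, TMM scaling, quasi-likelihood F test, Benjamini-Hochberg adjustment over 15437 genes and a threshold of 0.05. The fit held the 4 conditions (for learned against not learned, the 2 classes); a further fit added replicate number as a block, and the tests between numbers come from it. CPM are TMM-scaled, and log2 values use a prior count of 2. Libraries with the same number correlated in their deviations from the condition means at 0.312 to 0.659 (18 pairs), against -0.517 to 0.0372 for other numbers (36 pairs), and 12 of 12 libraries correlated best with one of their own number; every same-number pair exceeded 0.1, so the numbers were taken to pair the samples.

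Alternatives were DESeq2 1.42.0, RLE scaling, no filter, each library left out, soft-to-soft replicates 1 and 2 left out, and the counts of the other 10 libraries divided by 2. Simulated counts served to check the scripts. Every member is named; full statistics are given where a member passed in either fit, and otherwise the 3 highest and 3 lowest members of a comparison with 1 sign in all 3 same-number pairs. Of other lists, at most 5 called genes a direction are named. Promoters are from RefSeq (GRCh38.p14). Figures used matplotlib 3.10.9.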

Additional observations from a re-analysis of the deposited data

Results flagged for a closer look

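Each member and each arm's mean log2 level was examined in the 4 libraries of each replicate number, and the arm means also in the 6 libraries of each class, 130 groups in all, for a library that stood apart from its group by Dixon's criterion. In 6 groups a library did, about as chance gives, since chance singles out about 1 in 20 groups. SLC7A5 was at 2790.2 CPM in LPA-to-FAKi replicate 3, against 2133 to 2201 CPM in the other libraries numbered 3. ATF6 was at 55.4 CPM in stiff-to-soft replicate 2, against 48.9 to 49.1 CPM in the others numbered 2. CRELD2 was at 40.1 CPM in LPA-to-soft replicate 2, against 49.5 to 49.9 CPM. SLC38A2 was at 634 CPM in LPA-to-soft replicate 1, against 567 to 575 CPM in the others numbered 1. NUPR1 was at 10.7 CPM in LPA-to-FAKi replicate 1, against 24.7 to 25.9 CPM, and EIF2AK3 was at 17.8 CPM in the same library, against 21.8 to 22.3 CPM.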

How the results depend on the processing

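Over 64 calls of members, 1088 values under the alternatives kept the call in 977, lost it in 111 and reversed it in 0. All but 1 of these calls were between replicate numbers, so the totals describe those. The 1 call between conditions, PPP1R15A for stiff-to-soft over soft-to-soft, was kept in 7 of 17 alternatives and lost in 10. Replicate numbers pair the libraries, and adding them as a block in edgeR moved 1 call between conditions. Stiff-to-soft over soft-to-soft had 0 members without the replicate block and 1 with it. The block changed no other edgeR call between conditions. In that comparison, DESeq2 with the block called 1 member, and leaving out soft-to-soft replicates 1 and 2 left 0. DESeq2 with the block called 4 members for LPA-to-FAKi over LPA-to-soft, 1 for LPA-to-FAKi over soft-to-soft and 3 for any condition. The shares of its genes called were 8.49%, 3.87% and 9.07% in that order, and 2.65% for stiff-to-soft over soft-to-soft. Without soft-to-soft replicates 1 and 2, the block fit called 2 members for LPA-to-FAKi over LPA-to-soft and 1 for stiff-to-soft over LPA-to-FAKi. RLE scaling with the block and no filter with the block were chosen after seeing the data.

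With each library left out in turn, the block fit called 0 to 1 members for stiff-to-soft over soft-to-soft, 0 to 3 for LPA-to-FAKi over LPA-to-soft, 0 to 2 for LPA-to-FAKi over soft-to-soft, 0 to 1 for stiff-to-soft over LPA-to-FAKi, 0 to 2 for any condition and 10 to 19 for number 3 over number 2. The counts of 3, 2, 1 and 2 came without soft-to-soft replicate 2.

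Arm medians between conditions changed sign in many of these fits. The ATF4 arm ran from -0.036 to 0.15 for stiff-to-soft over soft-to-soft, -0.12 to 0.17 for LPA-to-soft over soft-to-soft, -0.14 to 0.15 for LPA-to-FAKi over LPA-to-soft, -0.091 to 0.16 for LPA-to-FAKi over soft-to-soft, -0.098 to 0.20 for stiff-to-soft over LPA-to-soft and -0.050 to 0.17 for stiff-to-soft over LPA-to-FAKi. The ER arm ran from -0.047 to 0.13 for stiff-to-soft over soft-to-soft, -0.13 to 0.027 for LPA-to-soft over soft-to-soft, -0.093 to 0.068 for LPA-to-FAKi over LPA-to-soft, -0.087 to 0.094 for LPA-to-FAKi over soft-to-soft, -0.022 to 0.17 for stiff-to-soft over LPA-to-soft, -0.084 to 0.15 for stiff-to-soft over LPA-to-FAKi and -0.032 to 0.070 for learned over not learned. Without soft-to-soft replicates 1 and 2, the ER arm median was -0.018 for stiff-to-soft over soft-to-soft, -0.070 for LPA-to-soft over soft-to-soft, -0.0055 for learned over not learned and 0.097 for number 3 over number 2, and the ATF4 arm median was 0.18 for LPA-to-FAKi over soft-to-soft. The cause was not tested. Low members such as ERN1 and VLDLR carry the largest counting error.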
